A study of Mus musculus with 3 samples.

Results

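Thymocytes pass through bursts of division as they mature. The 31 genes described here encode enzymes of the pathways for the building blocks of DNA and RNA needed in such divisions. They were taken by gene symbol, and all 31 were found among the 32285 genes counted. The question was how their messages varied between stages of thymocyte development and between mice that differ in the tumour suppressor p53. In short, 25 of the 31 genes were more than 1.5-fold higher in cycling than in quiescent double-positive thymocytes in each of 3 libraries, against 18%, 15.7% and 18.3% of all genes in the single libraries. Impdh1 and Dck were lower there by more than 1.5-fold, against 43.5%, 45.8% and 43% of all genes. When libraries were scaled to their middle gene, Impdh1 was past that fold in no library and Dck not in every library. Between genotypes 13 of the 31 genes were past 1.5-fold in at least 1 pair and 1 class of cells, against 52.6% of all genes.

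The data are single-cell RNA libraries of the thymus of female mice of 4 weeks, with 1 library for each of 3 genotypes, p53 +/-, p53 AD/- and p53 -/-. The first genotype carries 1 intact copy of p53, the second carries the allele labelled AD over a null allele, and the third carries 2 null alleles. AD is not spelled out in the labels, and p53 dimers are named in the title of the series. The strain labels give each mouse as 50% BALB/C with 50% C57BL6, C57BL7 or C57BL8, in that order. No wild-type mouse is labelled among the 3, although the design text calls the first group WT. With 1 mouse and 1 library per genotype there is no replicate check of any difference between genotypes, no test was made, and all intervals given are 95% intervals that cover counting error only.

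One-carbon metabolism moves single carbon units on folate. Serine, taken up or made from a glycolytic intermediate, donates the unit, which then enters the purine ring and turns deoxyuridine monophosphate into thymidylate. Purines and pyrimidines are built from small molecules along de novo routes or recovered by salvage enzymes from ready-made bases and nucleosides, and ribonucleotide reductase converts ribonucleotides into the deoxynucleotides needed in S phase. In the thymus, double-negative (DN) precursors divide after a successful T-cell receptor beta chain, become double-positive (DP) cells, stop dividing, and after selection mature into single-positive (SP) cells.

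Each library held 6308 to 9889 cell barcodes and 27638820 to 54164425 UMIs, where a UMI (unique molecular identifier) stands for 1 captured RNA molecule. Cells with at least 500 genes and under 10% mitochondrial UMIs numbered 8150, 6171 and 9543 in the p53+/-, p53 AD/- and p53-/- libraries. They were clustered without the 31 genes and named from marker genes as DN-like, cycling, quiescent DP-like, selected (DP or SP)-like and mature SP-like, and the suffix is left out from here on. Pairs of libraries shared 15 to 29 barcode sequences. Trp53 itself was counted at 86.1, 90.9 and 74.9 CPM (UMIs of a gene per 1000000 UMIs) in the same order. A count per gene does not tell which exons its UMIs came from, so it does not check the genotype labels. RNA of the null allele that lies outside its deleted part would be counted too.

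The 31 genes fell in 7 groups: 5 of folate one-carbon metabolism, 3 of serine synthesis, 6 of de novo purine synthesis, 3 of guanine nucleotide synthesis, 4 of de novo pyrimidine synthesis, 6 of deoxynucleotide metabolism and 4 of salvage. Levels are CPM of all UMIs of a class in a library. Where 3 values follow each other they belong to p53+/-, p53 AD/- and p53-/-, in that order. Levels of different genes are not compared with each other, since no length correction was made.

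Summed over the 31 genes, cycling cells had 3575, 3643 and 3621 CPM and quiescent DP cells 1161, 1193 and 1214 CPM. The sum was 2871, 3409.7 and 3025 CPM for DN cells, 1339, 1527 and 1477 CPM for selected cells and 1311, 1706 and 1353 CPM for mature SP cells. DN and cycling cells thus stood above the other 3 classes in every library. Per cell, cycling cells carried 58.1, 48.2 and 51.7 UMIs from these genes and quiescent DP cells 3.402, 2.57 and 3.06, and the median depth of a cell was 12951, 10552 and 11074 UMIs in the first class and 2716, 1976 and 2283 in the second. CPM removes that difference in total RNA or capture, and the 2 cannot be told apart here.

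Ratios are log2 ratios of CPM. A gene entered a comparison with at least 100 UMIs over both classes or libraries, and it is called higher or lower when it is past 1.5-fold. For cycling over quiescent DP cells all 31 genes had the UMIs, and 26, 25 and 26 of them were called higher, against a background of 18%, 15.7% and 18.3% of all genes. Both genes called lower, Impdh1 and Dck, were the same in each library, against a background of 43.5%, 45.8% and 43% of all genes. The median ratio of the 31 genes was 1.89, 1.80 and 1.74, and that of all genes -0.44, -0.49 and -0.42. TMM factors and median-of-ratios factors, which scale to the middle gene, bring the median of all genes to between 0.04 and 0.16 and raise each ratio of this comparison by the same amount as that median. With TMM factors 29 of the 31 genes were past 1.5-fold higher in each library and 0, 1 and 1 lower.

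For DN over quiescent DP cells 24, 20 and 28 genes had the UMIs and 20, 16 and 24 were called higher, against 16.9%, 15.3% and 16.9% of all genes. Lower were 3, 2 and 2 genes, against 36.3%, 47% and 39.8%, and they were Impdh1 and Dck and, in p53+/-, Psph. The DN class was small, with 96, 54 and 149 cells. In it the summed level of the DN markers was 1388, 951 and 1594 CPM and that of the gamma-delta T cell markers 909.9, 1221 and 1082 CPM. Tcrg-C1 and Tcrg-C2 of the latter list were among the top genes of the DN cluster itself, beside Il2ra and Hes1. The sum therefore does not tell whether cells of another lineage were in the class. The S and G2/M markers summed to 1767, 1573 and 2097 and 2224, 3095 and 2649 CPM in DN cells, against 349.9, 305 and 423 and 230.4, 189 and 323 CPM in quiescent DP cells. The part of gamma-delta or of dividing cells in the DN values was not tested.

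For selected over quiescent DP cells 13, 12 and 16 of 29, 23 and 29 genes were called higher, against 10.4%, 10.1% and 11.4% of all genes, and 1, 2 and 2 lower, against 14.2%, 15.9% and 16.6%. For mature SP over quiescent DP cells the count was 16, 13 and 17 of 26, 22 and 26 genes, against 11.9%, 10.9% and 12.1%, and 3, 2 and 3 were lower, against 38%, 40.1% and 37.3%. The genes lower were Dck, Impdh1 and Uck2, with Dck in both comparisons and every library. The median ratio of the members was 0.54, 0.63 and 0.67 in selected and 0.75, 0.79 and 0.77 in mature SP cells. Of the 31 genes, 24, 24 and 21 had their lowest level of the 5 classes in quiescent DP cells. The share of all genes with their lowest level there was not computed.

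The highest class was the same in all 3 libraries for 22 genes. It was the cycling class for 10 genes (Rrm1, Rrm2, Tyms, Dtymk, Tk1, Hprt, Mthfd2, Ctps, Gmps and Psph) and the DN class for another 10 (Mthfd1, Phgdh, Ppat, Gart, Paics, Adsl, Atic, Impdh2, Dhodh and Uck2). It was quiescent DP for Impdh1 and Dck. The like counts over all genes were not made. Most de novo purine genes therefore sat in the DN group and most deoxynucleotide genes in the cycling group. Between cycling and DN cells only 9, 6 and 6 genes were called higher (background 15.6%, 21.6% and 15.2%) and 1, 4 and 3 lower (background 19.2%, 15.6% and 17.8%).

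**Figure D1:**
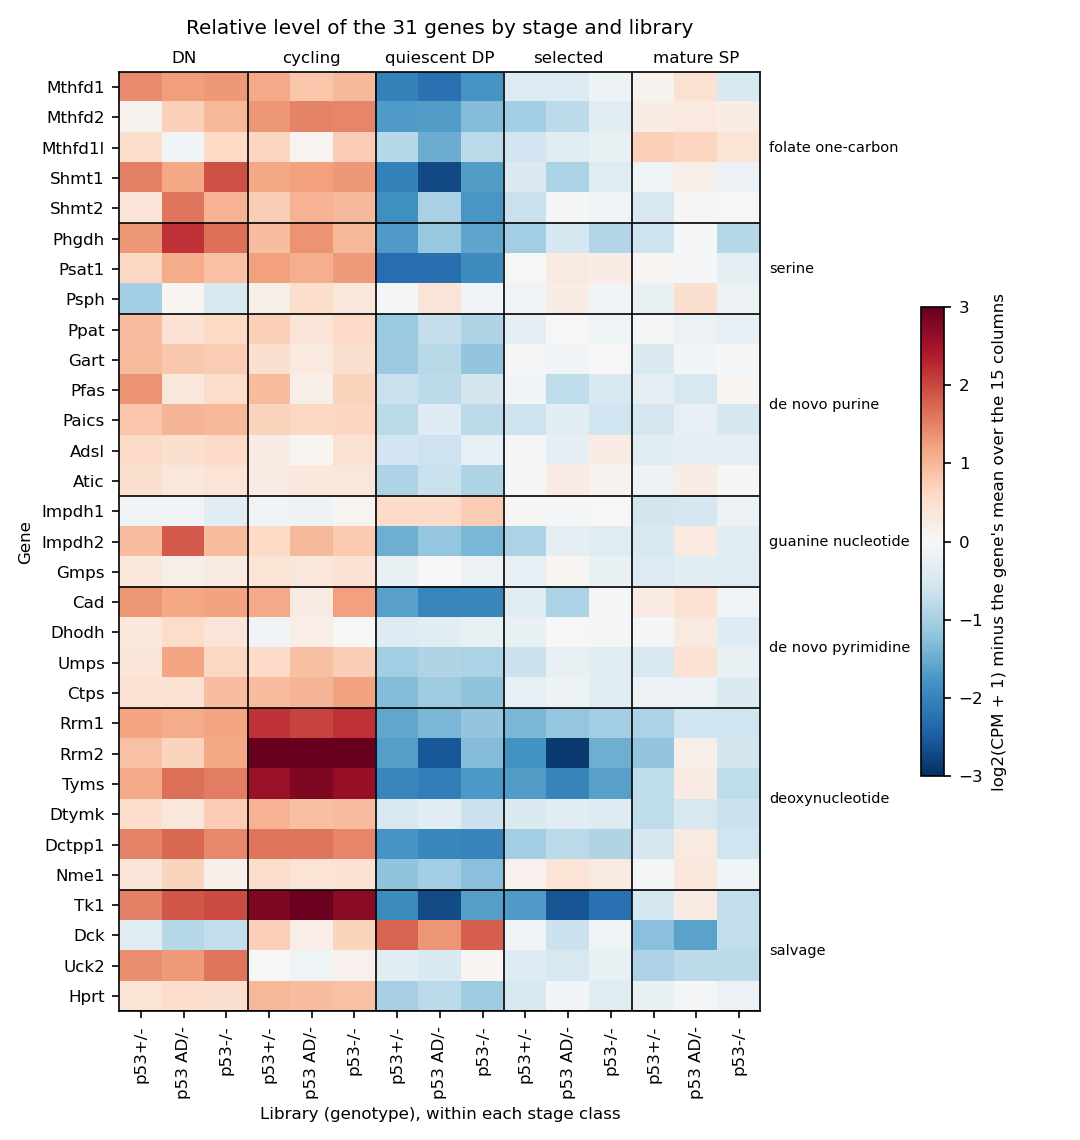
Level of each of the 31 genes (rows, grouped by role) in 5 stage classes and, within each class, 3 libraries (columns), as log2(CPM + 1) minus the gene's mean over the 15 columns; the colour scale ends at 3 either way. Most rows are high (red) in the DN and cycling columns and low (blue) in the quiescent DP columns, and Impdh1 and Dck run the other way.

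Ribonucleotide reductase has a large subunit, encoded by Rrm1, and a small one, encoded by Rrm2, which in dividing cells supplies the radical for the reaction. The level of Rrm2 was 332, 398 and 383 CPM in cycling cells and 9.505, 4.71 and 12.5 CPM in quiescent DP cells, a log2 ratio of 5.13 (95% interval 4.87 to 5.40), 6.40 (5.92 to 6.94) and 4.94 (4.71 to 5.19). It was 60.2, 51.3 and 73.5 CPM in DN cells, 8.54, 3.56 and 10.98 CPM in selected cells and 13.7, 36.02 and 21.5 CPM in mature SP cells. Rrm2 thus had the highest mean ratio of the deoxynucleotide genes, and its cycling and quiescent levels did not overlap in any pair of libraries. Rrm1 went from 16.4, 18.8 and 21.5 CPM in quiescent DP to 229, 208 and 232 CPM in cycling cells.

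Tyms encodes thymidylate synthase, which takes the one-carbon unit from methylene folate. Its level was 278, 322 and 285 CPM in cycling cells, 101, 143 and 134 CPM in DN cells and 10.9, 9.97 and 13.05 CPM in quiescent DP cells. The log2 ratio of cycling over quiescent DP cells was 4.67, 5.02 and 4.45. Dctpp1, which removes deoxycytidine triphosphate and odd deoxynucleotides, was high in both DN and cycling cells (229, 266 and 220.1 CPM in DN, 246, 249 and 223 CPM in cycling, 22.9, 19.9 and 19.4 CPM in quiescent DP cells).

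Dtymk, the kinase of thymidine monophosphate, had the lowest mean ratio of the group. It was at 290.0, 262 and 268 CPM in cycling and 99.6, 111 and 89.8 CPM in quiescent DP cells, a log2 ratio of 1.54 (95% interval 1.45 to 1.63), 1.23 (1.12 to 1.35) and 1.58 (1.48 to 1.67). Nme1, a nucleoside diphosphate kinase that serves all nucleotides, was high wherever cells were not quiescent DP. Its level was 463, 430.4 and 439 CPM in cycling, 354, 428 and 391 CPM in selected and 308, 398 and 294 CPM in mature SP cells, against 138, 157 and 134 CPM in quiescent DP cells. Of these 6 genes all were past 1.5-fold higher in cycling cells in each library, and 4 were in mature SP cells.

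Salvage genes split. Tk1, the cytosolic thymidine kinase of S phase, was at 99.5, 109 and 92.6 CPM in cycling and 2.805, 1.25 and 3.58 CPM in quiescent DP cells, a log2 ratio of 5.15 (95% interval 4.67 to 5.67), 6.45 (5.52 to 7.59) and 4.69 (4.25 to 5.17). Dck, the kinase that salvages deoxycytidine and deoxyadenosine, was at 301, 225 and 309 CPM in quiescent DP and 146, 102 and 141 CPM in cycling cells, a log2 ratio of -1.05 (95% interval -1.12 to -0.97), -1.14 (-1.25 to -1.03) and -1.13 (-1.20 to -1.06). The 2 deoxynucleoside kinases therefore had opposite patterns between these classes. Dck was lower still in selected cells, at 83.4, 56.9 and 81.3 CPM, and in mature SP cells, at 36.6, 28.4 and 53.2 CPM. With TMM factors its ratio was -0.54, -0.60 and -0.59, so the direction held and the 1.5-fold call in p53+/- did not. With median-of-ratios factors the call in p53-/- was lost too, at -0.55.

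Uck2, a uridine and cytidine kinase, was led by DN cells at 193, 179 and 224 CPM, against 74.3, 67.4 and 80.02 CPM in cycling and 58.98, 53.4 and 76.2 CPM in quiescent DP cells. Its log2 ratio of cycling over DN cells was -1.38, -1.41 and -1.48. Uck2 was the one member past 1.5-fold lower in cycling than in DN cells in every library. Hprt, which recovers hypoxanthine and guanine, was at 173, 163 and 159 CPM in cycling and 42.6, 48.9 and 40.8 CPM in quiescent DP cells.

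**Figure D2:**
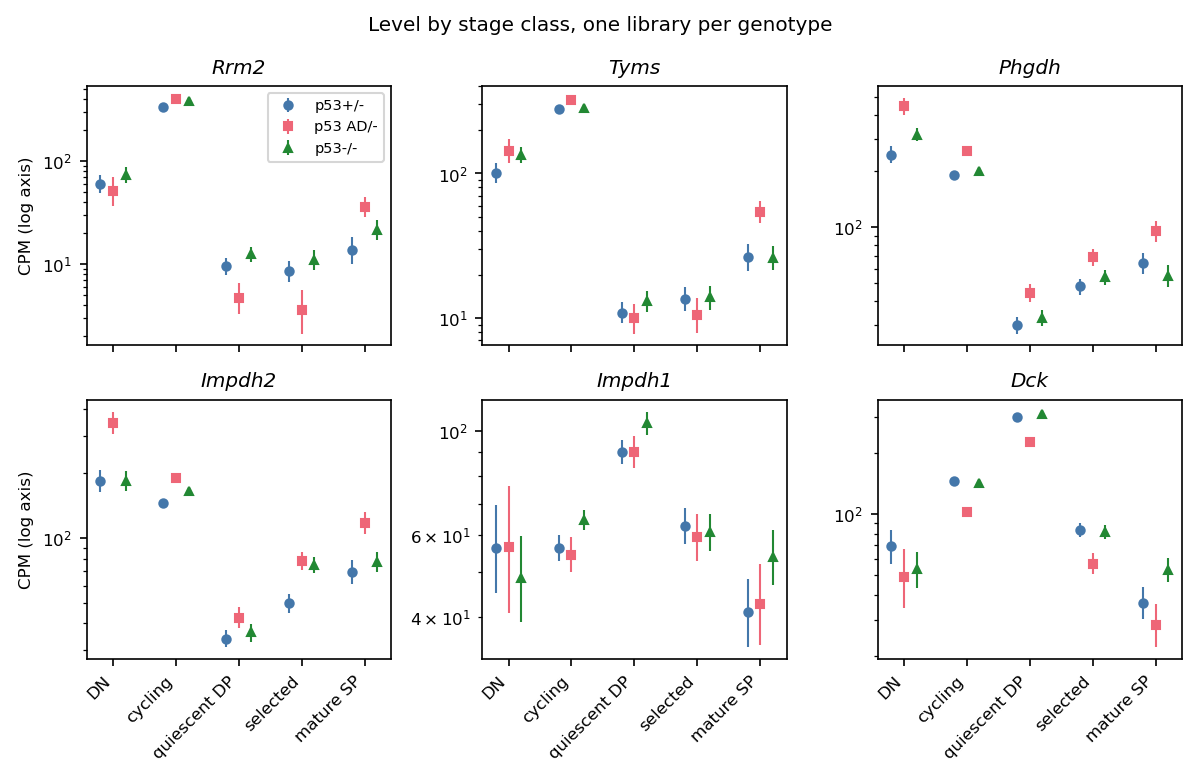
Level in CPM (log axis) of 6 genes in the 5 stage classes, with 1 point per library and bars for the exact Poisson 95% interval. Rrm2 and Tyms peak in cycling cells, Phgdh and Impdh2 in DN cells, and Impdh1 and Dck in quiescent DP cells.

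Phgdh makes the first step from the glycolytic intermediate toward serine. Its level was 246, 447 and 315 CPM in DN, 191, 256 and 201 CPM in cycling and 29.7, 44.6 and 32.5 CPM in quiescent DP cells, rising to 48.04, 69.2 and 53.8 CPM in selected and 63.9, 95.3 and 54.7 CPM in mature SP cells. Psat1, the transaminase of the second step, had the highest ratio of the serine genes. It was at 42.97, 39.3 and 44.3 CPM in cycling and 2.88, 2.91 and 4.09 CPM in quiescent DP cells, a log2 ratio of 3.90 (95% interval 3.42 to 4.42), 3.76 (3.12 to 4.47) and 3.44 (3.02 to 3.88). Psph, the phosphatase of the last step, had the lowest ratio. It was at 50.1, 64.4 and 56.7 CPM in cycling and 42.5, 57.997 and 41.7 CPM in quiescent DP cells, a log2 ratio of 0.24 (95% interval 0.08 to 0.40), 0.15 (-0.03 to 0.33) and 0.44 (0.29 to 0.60). Of this linear route, Phgdh and Psat1 were thus past 1.5-fold higher in each library and Psph was not. That holds for CPM: with TMM or median-of-ratios factors Psph was past it in each library too, at up to 0.74, 0.69 and 1.03.

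Of the folate genes all 5 were past 1.5-fold higher in cycling cells in each library. In mature SP over quiescent DP cells Mthfd1 and Shmt1 had the UMIs in no library and Mthfd1l in 2, and the other genes, Shmt2 and Mthfd2, were past 1.5-fold higher in each. Shmt1, the cytosolic enzyme that takes a carbon from serine, was at 19.5, 20.4 and 21.7 CPM in cycling, 25.3, 19.7 and 33.6 CPM in DN and 1.25, 0.415 and 1.88 CPM in quiescent DP cells. Its log2 ratio of cycling over quiescent DP cells was 3.97 (95% interval 3.25 to 4.79), 5.62 (4.05 to 7.91) and 3.53 (2.92 to 4.22), and the second value rests on 3 UMIs in quiescent DP cells. Shmt2, its mitochondrial counterpart, was at 36.3, 45.5 and 43.4 CPM in cycling and 5.298, 10.4 and 5.71 CPM in quiescent DP cells.

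Mthfd2 and Mthfd1l carry the unit through the mitochondrion and release it as formate, and Mthfd1 takes it up again in the cytosol. Mthfd2 was at 52.9, 59.3 and 58.1 CPM in cycling, 22.02, 34.2 and 41.6 CPM in DN and 5.61, 5.68 and 7.68 CPM in quiescent DP cells. Mthfd1 was at 32.7, 26.03 and 28.99 CPM in cycling, 39.5, 35.5 and 36.8 CPM in DN and 2.73, 2.21 and 3.497 CPM in quiescent DP cells. Mthfd1l had the lowest mean ratio of the folate genes, from 6.54, 3.88 and 6.74 CPM in quiescent DP to 20.5, 13.5 and 22.1 CPM in cycling cells, a log2 ratio of 1.65 (95% interval 1.30 to 2.01), 1.80 (1.20 to 2.44) and 1.71 (1.37 to 2.07). Its level in mature SP cells was 21.5, 20.3 and 17.1 CPM.

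The de novo purine route builds inosine monophosphate, beginning with Ppat and ending with Atic. All 6 of its genes were past 1.5-fold higher in cycling cells in every library, with mean log2 ratios of 0.76 to 1.52. Ppat had the highest mean ratio, from 20.02, 26.99 and 23.4 CPM in quiescent DP to 74.4, 58.9 and 67.6 CPM in cycling cells, a log2 ratio of 1.89 (95% interval 1.70 to 2.09), 1.12 (0.89 to 1.37) and 1.53 (1.35 to 1.72). Adsl had the lowest, from 19.7, 18.8 and 24.7 CPM to 35.1, 30.7 and 41.4 CPM, a log2 ratio of 0.83 (95% interval 0.62 to 1.05), 0.71 (0.41 to 1.01) and 0.74 (0.55 to 0.94). None of the 6 genes was higher in cycling than in DN cells in all 3 libraries.

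The trifunctional Gart was at 50.01, 43.9 and 49.9 CPM in cycling and 16.1, 19.7 and 15.1 CPM in quiescent DP cells, and Pfas, which acts between its steps, at 16.5, 9.28 and 13.6 CPM and 4.67, 4.29 and 5.202 CPM. The bifunctional Paics was at 138, 134 and 136 CPM in cycling and 49.1, 65.2 and 49.3 CPM in quiescent DP cells. Atic was at 58.8, 61.8 and 63.3 CPM and 25.6, 30.7 and 25.7 CPM in these 2 classes. Atic was also at 48.5, 59.1 and 54.02 CPM in selected cells, near its cycling level.

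Guanine nucleotides branch off through IMP dehydrogenase, which has 2 isozymes, and GMP synthetase, encoded by Gmps. Impdh2 was at 184, 345 and 185 CPM in DN, 146, 191 and 166 CPM in cycling and 33.97, 42.5 and 36.2 CPM in quiescent DP cells, a log2 ratio of cycling over quiescent DP cells of 2.11 (95% interval 1.96 to 2.26), 2.17 (1.99 to 2.34) and 2.19 (2.05 to 2.34). Impdh1 was at 56.3, 56.6 and 48.5 CPM in DN, 56.3, 54.5 and 64.6 CPM in cycling and 90.2, 90.2 and 104 CPM in quiescent DP cells, a ratio of -0.68 (95% interval -0.81 to -0.56), -0.73 (-0.90 to -0.56) and -0.69 (-0.80 to -0.58). In CPM the isozymes thus ran in opposite directions.

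Impdh2 made up 72.2, 77.8 and 71.9 percent of the UMIs of both isozymes in cycling cells, 27.4 (25.2 to 29.6), 32.01 (29.1 to 35.1) and 25.8 (23.7 to 28.02) percent in quiescent DP cells, 44.1, 56.9 and 55.2 percent in selected and 62.99, 73.3 and 59.1 percent in mature SP cells. These are shares of UMIs, not adjusted for transcript length, with exact Clopper-Pearson intervals. The share of Impdh2 was lowest in quiescent DP cells in every library and its intervals there did not reach those of any other class. With TMM factors the ratio of Impdh1 was -0.18, -0.19 and -0.14, no longer past 1.5-fold, while that of Impdh2 rose further. With median-of-ratios factors the Impdh1 ratio was -0.20, -0.20 and -0.105, and in p53-/- its interval (-0.214 to 0.004) included no difference. Gmps was at 113, 106 and 115 CPM in cycling and 71.8, 83.1 and 74.03 CPM in quiescent DP cells, a ratio of 0.65, 0.36 and 0.63, past 1.5-fold in p53+/- and p53-/-.

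De novo pyrimidine synthesis starts with Cad, a trifunctional protein, and passes through the mitochondrial Dhodh and the bifunctional Umps. Cad was at 24.2, 12.7 and 26.03 CPM in cycling, 27.8, 24.99 and 25.6 CPM in DN and 2.73, 1.94 and 1.96 CPM in quiescent DP cells, a log2 ratio of 3.15 (95% interval 2.65 to 3.69), 2.71 (1.91 to 3.62) and 3.73 (3.13 to 4.40). Dhodh was at 9.03, 11.2 and 9.79 CPM in cycling and 7.09, 7.47 and 8.102 CPM in quiescent DP cells, a ratio of 0.35 (95% interval -0.03 to 0.74), 0.58 (0.10 to 1.08) and 0.27 (-0.08 to 0.63). The first gene thus had the highest and the second the lowest mean ratio of the group, and in p53+/- and p53-/- the interval for Dhodh included no difference.

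Umps went from 15.7, 17.3 and 16.8 CPM in quiescent DP to 49.8, 63.1 and 56.1 CPM in cycling cells, with 42.7, 76.3 and 51.7 CPM in DN cells. Ctps, which makes CTP from UTP, went from 5.14, 6.23 and 5.54 CPM to 28.1, 29.4 and 33.9 CPM. Both were past 1.5-fold higher in cycling cells in every library.

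In droplet data, free RNA from broken cells adds a few UMIs to every droplet. For 9 of the 31 genes (Rrm2, Tk1, Tyms, Shmt1, Psat1, Rrm1, Dctpp1, Mthfd1 and Cad) a cluster elsewhere in the same library was over 20 times higher than quiescent DP cells in at least 1 library. Their quiescent DP levels may hold such RNA and are not read as expression there. No minimum number of cells was set for these clusters, which include parts of the cycling class. The smallest held 2 cells in p53 AD/-, so a few cells may set the highest level.

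To see the genes within the cycling class, it was divided into 10 subclusters, again without the 31 genes. Those with more S than G2/M marker CPM, called S-led, held 354, 285 and 355 cells, and the others, called G2/M-led, held 695, 473 and 1328 cells. In S-led over G2/M-led cells 11, 16 and 6 genes were called higher of 31, 30 and 31, against 3.51%, 5.64% and 3.33% of all genes, and none lower, against 10.9%, 15.1% and 8.84%. Ppat, Gart, Paics, Umps, Tk1 and Shmt1 were past 1.5-fold in each library. The count of genes called higher was highest in p53 AD/-, but that difference between genotypes was not tested. The G2/M-led cells also differed in make-up between the libraries. Subcluster 0, with S markers at 3604 CPM, gave 88, 16 and 420 of them. Subcluster 2, with S markers at 1969 CPM, gave 32, 279 and 10. The 3 counts thus come from comparisons with unlike cells.

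Paics, of the purine route, was at 205, 197 and 203 CPM in S-led and 106, 94.03 and 122 CPM in G2/M-led cells, a log2 ratio of 0.95 (95% interval 0.83 to 1.07), 1.07 (0.91 to 1.23) and 0.74 (0.63 to 0.85). Umps was at 69.04, 92.8 and 81.6 CPM and 40.7, 44.4 and 50.4 CPM, a ratio of 0.76, 1.06 and 0.70. Rrm2 was at 393, 489.7 and 446 CPM and 303, 341 and 369 CPM, a ratio of 0.37, 0.52 and 0.27. Paics and Umps therefore had larger ratios between these cells than Rrm2. The names rest only on the larger marker sum, and some G2/M-led cells also had high S markers. Pcna, an S marker, was at 884 CPM in the G2/M-led subcluster 8, against 779 and 763 CPM in the S-led subclusters 3 and 5. The ratios are thus not a contrast of S phase with G2/M alone. Impdh1 was lower in S-led cells, with ratios of -0.44, -0.34 and -0.34.

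The G2/M-led subclusters differed in Hist1h1b, a histone gene transcribed in S phase, and were divided at 1000 CPM of it after the values were seen. High-histone cells numbered 431, 324 and 903, and low-histone cells 264, 149 and 425. In high-histone over low-histone cells 4, 4 and 6 genes were called higher (background 10.4%, 9.68% and 7.8%) and 12, 9 and 7 lower (background 9.07%, 9.31% and 8.04%), of 30, 26 and 31. The members past the threshold in every library are given next.

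Rrm2 was at 422, 435 and 493 CPM in high-histone and 112, 121 and 137 CPM in low-histone cells, a log2 ratio of 1.91 (95% interval 1.77 to 2.05), 1.85 (1.65 to 2.06) and 1.84 (1.75 to 1.94). Tyms was at 326, 338 and 360.0 CPM and 119.6, 114 and 133 CPM, a ratio of 1.45, 1.56 and 1.44. Rrm1 and Tk1 were the other 2 genes past 1.5-fold higher in each library, with ratios of 0.79, 1.0001 and 0.81 for Rrm1 and 0.62, 0.68 and 0.97 for Tk1.

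No gene of serine, de novo purine, guanine or de novo pyrimidine synthesis was positive in all 3 libraries. Shmt1 was at 7.97, 6.98 and 14.5 CPM in high-histone and 28.4, 23.8 and 28.8 CPM in low-histone cells, a ratio of -1.83 (95% interval -2.31 to -1.37), -1.77 (-2.49 to -1.07) and -0.99 (-1.29 to -0.70). Atic had ratios of -1.09, -1.05 and -0.88, Ppat -0.92, -0.998 and -0.74, Umps -0.89, -0.85 and -0.78 and Shmt2 -1.01, -1.10 and -0.76. These 5 genes were past 1.5-fold lower in each library, but Shmt1 had the UMIs to be called in p53+/- and p53-/- only. Because the cut was set with values known, these ratios are a description.

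**Figure D3:**
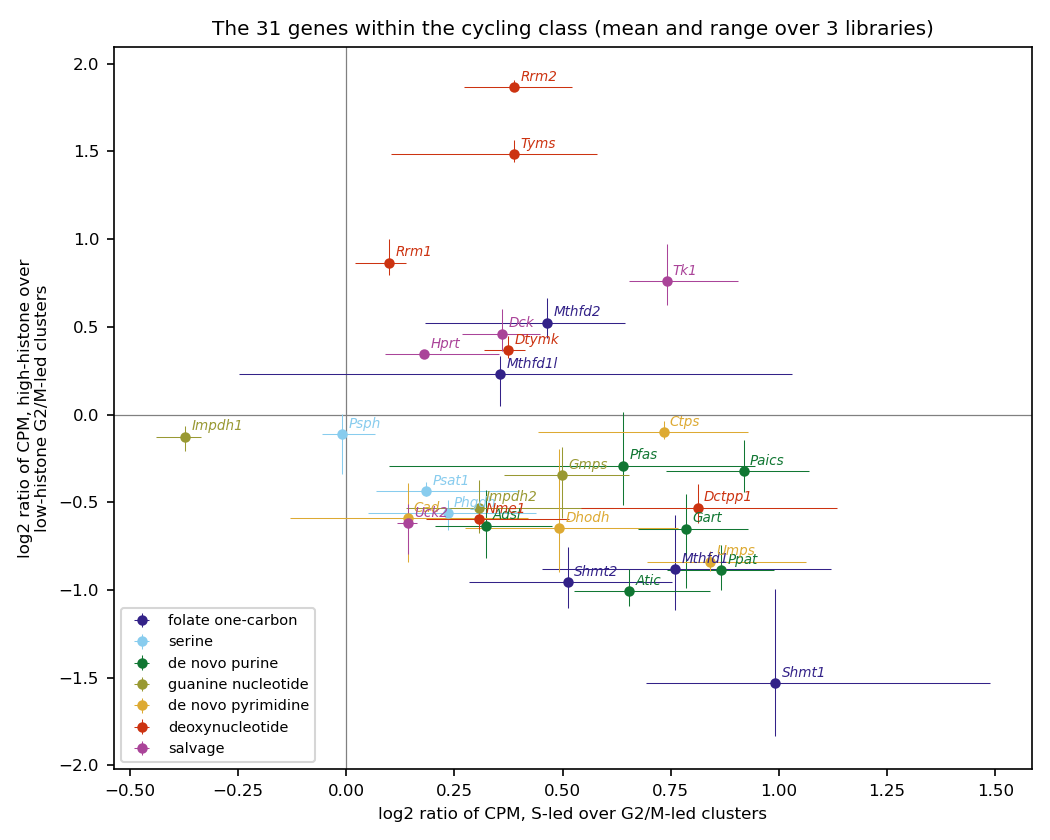
Each of the 31 genes by its log2 ratio of CPM between S-led and G2/M-led cells (x axis) and between high-histone and low-histone G2/M-led cells (y axis), with points at the mean and lines over the range of 3 libraries, coloured by role. Rrm2, Tyms, Rrm1 and Tk1 lie in the upper part and the purine, pyrimidine and folate genes mostly at the lower right.

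Beside the mature SP cells stood a small cycling group of 34, 43 and 54 cells. In it 10, 13 and 12 of 19, 21 and 23 genes were called higher than in other mature SP cells, against 12.6%, 13% and 11.6% of all genes, and 1, 0 and 1 lower, against 18.2%, 15.3% and 13.9%. Rrm2 rose from 13.7, 36.02 and 21.5 CPM to 253, 326 and 239 CPM, and Tyms from 26.4, 54.2 and 26.2 CPM to 271, 303 and 174 CPM. Phgdh went from 63.9, 95.3 and 54.7 CPM to 142, 249 and 127 CPM. Dividing mature cells thus differed from other mature cells in the same direction as cycling from quiescent DP thymocytes for Rrm2 and Tyms.

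Since many of these genes moved together by stage, the 250 bases before their transcription start were read from RefSeq on build GRCm38.p6 for the 29 genes matched (Pfas and Dhodh were not matched) and searched on both strands, together with the 50 bases after the start, for short words. The E2F words TTTCCCGC, TTTGGCGC, TTTCGCGC and TTTGCCGC were found in 1 of the 29 genes, Ppat, and in 2.26% of all 32851 windows of that length. The CCAAT box, CCAAT, was found in 15 genes and in 37.4% of windows, and the E-box CACGTG, the word bound by Myc, in 6 genes (Atic, Dtymk, Impdh2, Nme1, Paics and Tyms) and in 7.15% of windows. The cell cycle homology words TTTGAA and TTCGAA were found in 3 genes (Dck, Uck2 and Umps) and in 19.2% of windows. The ATF4 element TGATGNAA was found in none of the 29 and in 3.97% of windows. Some genes have more than 1 window, so counts of genes are not the same measure as shares of windows. Of the 33 windows of these genes 3.03% held an E2F word, 45.5% CCAAT, 21.2% CACGTG, 9.09% a cell cycle homology word and none the ATF4 element. A match describes the letters and is not a binding site, and no match says only that these letters are not in the window.

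Rrm2 at chr12:24708004-24708253 (plus strand), Rrm1 at chr7:102441445-102441694 (plus strand) and Tyms at chr5:30073626-30073875 (minus strand) are shown as genes of the deoxynucleotide group that had their highest level in cycling cells in all 3 libraries. Ppat at chr5:76951579-76951828 (minus strand) and Paics at chr5:76951052-76951301 (plus strand) start on opposite strands of the same stretch of chromosome 5, where their transcripts overlap, and were both higher in S-led cells, and Impdh2 lies at chr9:108560186-108560435 (plus strand). Sequences run 5′ to 3′ on the gene's strand and end just before the start, and capitals mark the words named above.
Rrm2: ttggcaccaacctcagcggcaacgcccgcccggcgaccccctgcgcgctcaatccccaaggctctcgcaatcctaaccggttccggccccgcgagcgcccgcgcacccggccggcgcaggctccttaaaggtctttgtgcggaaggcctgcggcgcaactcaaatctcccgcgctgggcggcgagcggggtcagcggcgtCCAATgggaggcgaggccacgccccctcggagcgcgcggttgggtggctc
Rrm1: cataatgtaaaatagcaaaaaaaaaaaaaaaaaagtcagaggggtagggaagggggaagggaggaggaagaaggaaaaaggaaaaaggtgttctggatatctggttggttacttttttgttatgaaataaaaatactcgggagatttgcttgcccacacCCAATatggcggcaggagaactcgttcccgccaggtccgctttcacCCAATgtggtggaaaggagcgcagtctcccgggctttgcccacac
Tyms: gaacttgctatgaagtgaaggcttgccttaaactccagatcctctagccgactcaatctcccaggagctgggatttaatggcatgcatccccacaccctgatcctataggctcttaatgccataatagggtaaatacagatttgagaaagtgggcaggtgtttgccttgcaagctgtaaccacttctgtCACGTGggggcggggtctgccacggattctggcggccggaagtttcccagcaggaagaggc
Ppat: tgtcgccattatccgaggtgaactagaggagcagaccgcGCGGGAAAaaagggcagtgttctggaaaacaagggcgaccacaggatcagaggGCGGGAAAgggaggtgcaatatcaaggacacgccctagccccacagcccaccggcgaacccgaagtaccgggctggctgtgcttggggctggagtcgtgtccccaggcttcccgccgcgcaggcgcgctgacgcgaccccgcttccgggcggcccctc
Paics: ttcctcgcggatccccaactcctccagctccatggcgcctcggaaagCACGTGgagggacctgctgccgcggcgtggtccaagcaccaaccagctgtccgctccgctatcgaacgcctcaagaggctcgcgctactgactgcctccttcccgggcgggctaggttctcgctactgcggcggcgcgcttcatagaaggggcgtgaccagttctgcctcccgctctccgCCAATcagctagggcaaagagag
Impdh2: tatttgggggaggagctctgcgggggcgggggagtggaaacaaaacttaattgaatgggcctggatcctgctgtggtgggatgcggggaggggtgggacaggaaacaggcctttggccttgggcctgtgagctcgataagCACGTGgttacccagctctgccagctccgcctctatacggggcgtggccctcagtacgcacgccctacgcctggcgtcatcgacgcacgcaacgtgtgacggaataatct
Rrm2 has CCAAT 50 bases before its start and Rrm1 has it 91 and 45 bases before. Tyms has CACGTG 61 bases, Impdh2 110 bases and Paics 203 bases before the start. Paics also has CCAAT 23 bases before its start. In Ppat the reverse complement of the first E2F word, GCGGGAAA, lies 211 and 158 bases before the start.

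Genotypes were compared within a class. The quiescent DP cells of the libraries came mostly from different clusters: cluster 0 held 64.7% of them in p53 AD/-, cluster 4 57.3% in p53-/-, and clusters 10, 3 and 1 held 32.3%, 24.8% and 20.4% in p53+/-. Malat1, a nuclear noncoding RNA, made up 6.06%, 3.67% and 7.37% of UMIs in the median quiescent DP cell, lowest in p53 AD/-. Both comparisons with p53 AD/- use the same library.

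Between p53-/- and p53+/- no gene was called in quiescent DP cells (26 with the UMIs) or in cycling cells (31), where 5.21% and 3.73% of all genes were past 1.5-fold either way. The median ratio of these genes was 0.10 in quiescent DP and 0.07 in cycling cells, and that of all genes was 0.09 in both. For Rrm2 in cycling cells the ratio was 0.21 (0.16 to 0.25), for Phgdh 0.07 (0.01 to 0.14) and for Dck -0.04 (-0.12 to 0.03). In the other classes 2 of 25 genes were called higher in DN cells (Mthfd2 and Shmt2, background 3.12%), 3 of 29 in selected cells (Impdh2, Shmt2 and Mthfd2, background 3.1%) and 1 of 24 in mature SP cells (Rrm2, background 4.03%). None was called lower, against 1.71%, 1.52% and 1.1% of all genes.

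Mthfd2 was higher in p53-/- than in p53+/- in DN cells, at 41.6 against 22.02 CPM, a ratio of 0.92 (0.32 to 1.54), and in selected cells, at 15.96 against 9.39 CPM, a ratio of 0.77 (0.34 to 1.19). In cycling cells it was 0.13, under the threshold. The levels of Mthfd2 in p53 AD/- lay between those in the other libraries, at 34.2 CPM in DN and 11.5 CPM in selected cells.

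In quiescent DP cells 3 of 25 genes were called between p53 AD/- and p53-/-: Shmt2 higher, Mthfd1l and Rrm2 lower. Of all genes 5.4% were called higher and 18% lower. Relative to the middle gene the split was 2 higher and 2 lower with TMM factors and 3 higher and 2 lower with median-of-ratios factors. Between p53 AD/- and p53+/- 4 of 25 were called, with Shmt2 and Phgdh higher (background 5.67%) and Mthfd1l and Rrm2 lower (background 10.5%). In cells matched on Malat1, with fewer UMIs, the counts were 0 and 1. The members' medians, 0.17 and 0.18, lay above those of all genes, -0.11 and -0.02.

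Rrm2, whose quiescent DP level may hold free RNA, was at 9.505, 4.71 and 12.5 CPM there, lowest in p53 AD/-. The ratio was -1.40 (-1.99 to -0.86) over p53-/- and -1.01 (-1.61 to -0.46) over p53+/-. The summed S and G2/M marker levels in these cells were also lowest in p53 AD/-, at 349.9, 305 and 423 CPM for S and 230.4, 189 and 323 CPM for G2/M markers, and their part in the Rrm2 values was not tested. Among quiescent DP cells matched on their Malat1 share, 2063 per library, the Rrm2 ratios were -1.14 (-1.85 to -0.47) and -0.91 (-1.62 to -0.23), each on fewer than 100 UMIs.

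Shmt2 was at 5.298, 10.4 and 5.71 CPM in quiescent DP cells. Its ratio was 0.86 (0.37 to 1.36) over p53-/- and 0.97 (0.48 to 1.47) over p53+/-. In the Malat1-matched cells Shmt2 was 0.21 (-0.46 to 0.88) over p53-/- and 1.06 (0.30 to 1.84) over p53+/-, so only the second stayed near its value. Mthfd1l was at 6.54, 3.88 and 6.74 CPM, with ratios of -0.80 (-1.47 to -0.16) and -0.76 (-1.43 to -0.12).

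In cycling cells 2 of 31 genes were called between p53 AD/- and p53-/- (Cad and Mthfd1l, both lower, background 20.7%; none higher, background 2.74%). Between p53 AD/- and p53+/- 3 were called, again Cad and Mthfd1l and also Pfas, all lower (background 13.4%; none higher, background 3.47%). These shares of genes lower were below the background. Subcluster 2 held 36.8% of the cycling cells in p53 AD/-, and subcluster 0 held 25.0% in p53-/-.

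Cad was at 24.2, 12.7 and 26.03 CPM in cycling cells, lowest in p53 AD/-, with ratios of -1.04 (-1.33 to -0.76) over p53-/- and -0.93 (-1.23 to -0.64) over p53+/-. In selected cells Cad was at 8.05, 4.94 and 10.2 CPM, again lowest in p53 AD/-. Mthfd1l was at 20.5, 13.5 and 22.1 CPM in cycling cells, with ratios of -0.71 (-0.997 to -0.44) and -0.61 (-0.91 to -0.32). In S-led cells alone its ratio over p53-/- was 0.03, and in G2/M-led cells alone -1.24, and over p53+/- these were -0.25 and -0.998. With TMM factors Mthfd1l was no longer past 1.5-fold in either comparison, and Cad stayed past it in both. Pfas was at 16.5, 9.28 and 13.6 CPM in cycling cells, with a ratio of -0.83 (-1.19 to -0.49) over p53+/- and -0.55 (-0.90 to -0.21) over p53-/-.

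Phgdh was the member that was highest in p53 AD/- in all 5 classes with an interval above 0 against both other libraries. Its log2 ratio over p53-/- was 0.51 in DN, 0.35 in cycling, 0.46 in quiescent DP, 0.36 in selected and 0.80 in mature SP cells. Over p53+/- the 5 ratios were 0.86, 0.42, 0.59, 0.53 and 0.58. The quiescent DP ratio of Phgdh over p53+/- was past 1.5-fold in 5 of 12 alternative settings, and in Malat1-matched cells it was 0.32 (0.02 to 0.62). Its mature SP ratio over p53-/- went down to 0.32 and was past 1.5-fold in 5 of 9. Impdh2 was higher in all 5 classes against p53+/- too, by 0.91, 0.38, 0.32, 0.66 and 0.75. Among genes with 100 UMIs in every class, 11.7% of all genes and 1 of 21 members were higher in this way over p53-/-, and 15.3% of all genes and 2 of 18 members over p53+/-. None of these members was lower in all 5 classes in either comparison, against 18.7% and 13.3% of all genes.

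In DN cells 1 of 22 genes was called between p53 AD/- and p53-/-, Impdh2 with 0.89 (0.66 to 1.13) (background 7.92% higher and 21.9% lower). Against p53+/- 3 of 20 were called higher, Impdh2, Phgdh and Umps (background 11.3% higher and 19.4% lower). The DN class of p53 AD/- held 54 cells, with DN markers at 951 CPM, against 1388 CPM in p53+/- and 1594 CPM in p53-/-. Malat1 made up 1.19%, 0.295% and 1.45% of UMIs in the median DN cell. The part of these differences in the DN ratios was not tested. In selected cells Cad and Rrm2 were called lower over p53-/- (of 28, background 15.2%; none higher, background 3.16%). The level of Rrm2 was lower in selected than in quiescent DP cells in each library, and it may hold free RNA too. Over p53+/- Impdh2 and Shmt2 were called higher (of 26, background 3.96%; none lower, background 10.5%).

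In mature SP cells 8 and 6 genes were called with p53 AD/-. Over p53-/-, 7 of 24 genes were higher in p53 AD/- (Phgdh, Psph, Impdh2, Umps, Rrm2, Tyms and Dctpp1) against 4.49% of all genes, and Dck was lower against 18.3% of all genes. Over p53+/-, 6 of 25 were higher (Psph, Impdh2, Umps, Rrm2, Tyms and Dctpp1) against 6.4%, and none lower against 10.7%. The class held 435, 343 and 606 cells. Malat1 made up 2.60%, 1.09% and 3.31% of UMIs in its median cell, again lowest in p53 AD/-. Cells of this class were not matched on Malat1, and the part of that difference in the counts was not tested. Over p53-/- the 8 genes called became 3 with clusters cut at Leiden resolution 2 and 4 with at least 1000 genes per cell.

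Tyms was at 26.4, 54.2 and 26.2 CPM in mature SP cells, with ratios of 1.05 (0.67 to 1.43) over p53-/- and 1.04 (0.64 to 1.44) over p53+/-. Rrm2 was at 13.7, 36.02 and 21.5 CPM there, with ratios of 0.74 (0.29 to 1.19) and 1.40 (0.87 to 1.95). Umps was at 23.5, 44.9 and 28.4 CPM, with ratios of 0.66 (0.26 to 1.05) and 0.93 (0.50 to 1.37). All 3 were highest in p53 AD/-. The part of free RNA in these levels was not tested.

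In the same cells the summed S markers stood at 753, 935 and 815 CPM and the G2/M markers at 324, 543 and 439 CPM, both highest in p53 AD/-. Their part in the mature SP values was not tested. Dctpp1 was at 56.1, 97.5 and 52.9 CPM, with ratios of 0.88 (0.61 to 1.16) and 0.80 (0.52 to 1.08). Dck was at 36.6, 28.4 and 53.2 CPM, with a ratio over p53-/- of -0.91 (-1.32 to -0.50). Over the other clusterings and filters tried, the Rrm2 ratio over p53-/- ranged from 0.08 to 0.88 and was past 1.5-fold in 4 of 9, while that of Tyms was past it in 9 of 9.

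**Figure D4:**
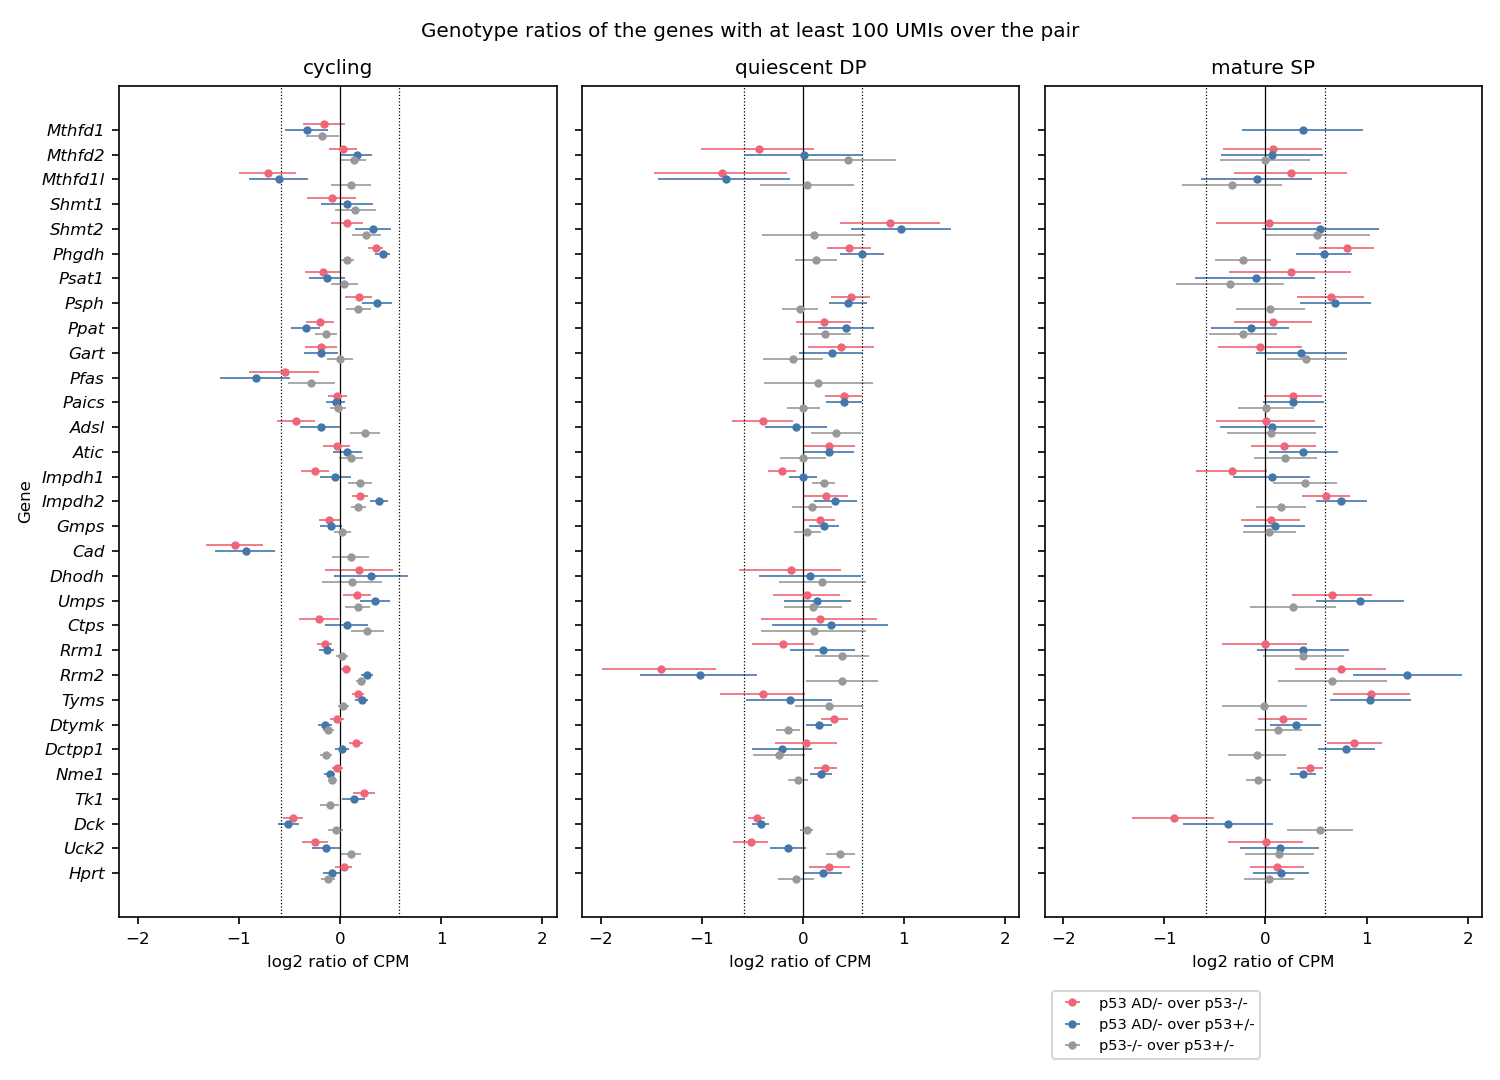
Log2 ratio of CPM between genotypes for each gene with at least 100 UMIs over the pair, in cycling, quiescent DP and mature SP cells, with exact 95% counting intervals; colours are the 3 pairs and dotted lines mark 1.5-fold. Most points lie between the dotted lines, with Cad at -1.04 in cycling cells and Rrm2 at -1.40 in quiescent DP cells (p53 AD/- over p53-/-) among those outside.

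A further 54 genes of the same pathways, not among the 31, were counted for comparison. Of the 32 with 100 UMIs in every library, 11 were past 1.5-fold higher in cycling than in quiescent DP cells in all 3 (among them Ggh, Gcsh, Ahcy, Prps1, Guk1, Pnp, Dut, Nme2, Slc29a1 and Myc) and 4 lower (Mthfd2l, Mat2b, Rrm2b and Uckl1). In the single libraries 18%, 15.7% and 18.3% of all genes were higher and 43.5%, 45.8% and 43% lower. Rrm2b, the p53-inducible small subunit of ribonucleotide reductase, was at 10.7, 9.78 and 10.9 CPM in cycling and 29.995, 23.3 and 26.01 CPM in quiescent DP cells. Rrm2 and Rrm2b thus had opposite patterns between these classes.

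Reads of genes that overlap on opposite strands cannot be told apart unless strand was used in counting, and no source used here states its use. No gene of the 31 overlaps another counted gene on its own strand, and 11 overlap one on the other strand: Mthfd1, Shmt1, Shmt2, Psph, Gart, Impdh2, Umps, Tk1, Uck2, and Ppat and Paics with each other.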

How the data were processed

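The deposited values were raw counts of UMIs per gene and barcode, produced by the authors, per the file headers with Cell Ranger 4.0.0 and, per the submitters' processing notes, on GRCm38. Library chemistry, annotation and strand use were not stated in any source used. The 31 genes, the other lists and the comparisons were chosen with earlier results of these data known.

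Barcodes with at least 500 genes and under 10% mitochondrial UMIs were kept. Scrublet called 1 of 25077 barcodes, so it has not worked, and no doublet was removed. Cells of the 3 libraries were clustered together in scanpy 1.11.5 (Python 3.11.15) on 2000 variable genes that held neither the 31 nor the 54 other pathway genes, with 30 principal components, 15 neighbours and Leiden resolution 1. A cluster took the name of the class with at least 2 markers among its top 10 genes (1 for cycling). The need for 2 markers, the rule for ties, the separate cycling mature SP class and the histone cut were set after the values were seen, and 3 clusters stayed unnamed (59 cells in p53+/-).

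UMIs were summed per library and class. Levels carry exact Poisson and ratios exact conditional binomial 95% intervals. With fewer than 3 UMIs a floor of 3 was used. The named genes were all members called in quiescent DP or cycling cells and the highest and lowest of each group by their cycling over quiescent DP ratio. The ratio code was tested on simulated data. TMM factors came from edgeR 4.0.16.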

Additional observations from a re-analysis of the deposited data

Results flagged for a closer look

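Rrm2, the small subunit of ribonucleotide reductase, differed between genotypes in opposite directions in different classes. Its log2 ratio of p53 AD/- over p53-/- was -1.40 in quiescent DP, -1.63 in selected and 0.74 in mature SP cells. Over p53+/- it was -1.01 in quiescent DP and 1.40 in mature SP cells. Each of these 5 ratios has an interval that excludes no difference, and every ratio with p53 AD/- rests on the same library. Over the other clusterings and filters tried, the mature SP ratio went down to 0.08 over p53-/- (past 1.5-fold in 4 of 9) and to 0.51 over p53+/- (past it in 8 of 9). The quiescent DP level of Rrm2 may hold free RNA. Its level in selected cells was lower still in each library, so the same limit holds for the ratio there. In mature SP cells its level was also far below that in cycling cells in each library. The part of free RNA in the mature SP ratios was not tested. The difference between the classes was not tested, since there is 1 library per genotype. The summed S and G2/M markers followed the same order, lowest in p53 AD/- among quiescent DP and highest among mature SP cells, and their part in the Rrm2 values was not tested.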

How the results depend on the processing

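Of 270 recomputed medians and counts, 231 stayed near their main value and 39 moved; the cause was not tested. In cycling over quiescent DP cells the median was 2.40, 2.33 and 2.28 with TMM factors, 2.38, 2.32 and 2.32 with median-of-ratios factors, and 1.64 (p53+/-) and 1.54 (p53-/-) as a mean over cells. In quiescent DP cells, genes called for p53 AD/- over p53-/- numbered 5 with median-of-ratios factors or at least 30 UMIs and 0 with at least 300 UMIs (fewer genes tested) or Malat1-matched cells. For p53 AD/- over p53+/- they numbered 2 under 5% mitochondrial UMIs, 1 with 300 UMIs and 1 when matched. For p53-/- over p53+/- the count was 1 under 5% mitochondrial UMIs and 1 with 30 UMIs. In cycling cells the median of p53 AD/- over p53-/- was 0.14 (TMM) and 0.16 (median-of-ratios), each with 1 gene called, and -0.28 with 5 called in G2/M-led cells alone. In S-led cells alone Mthfd1l reversed to 0.0330. The median of p53 AD/- over p53+/- was 0.0761 (median-of-ratios) and 0.0565 (S-led alone). For p53-/- over p53+/- 1 gene was called in S-led cells alone.

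Alternatives for mature SP cells and Scrublet were chosen after seeing the data, and TMM, means over cells and Malat1 matching were not run there. For p53 AD/- over p53-/- the count was 4 with 1000 genes, 5 under 5% mitochondrial UMIs, 4 and 3 at Leiden resolution 0.5 and 2, and 4 with 300 UMIs. Over p53+/- it was 2 with 300 UMIs. For p53-/- over p53+/- it was 3 with 1000 genes or Leiden resolution 2, 2 with 30 UMIs, and 0 under 5% mitochondrial UMIs, with 300 UMIs, with median-of-ratios factors and without the highest Scrublet scores. No paired analysis was possible because each genotype has 1 library. At this depth, genes of a few CPM such as Pfas and Dhodh carry wide intervals.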

Other observations

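Among the other pathway genes, Samhd1, which breaks down deoxynucleotides, was low in dividing cells and high in late stages. Its level was 0.586, 1.197 and 2.33 CPM in cycling and 1.09, 2.91 and 3.24 CPM in quiescent DP cells, against 64.9, 112 and 99.5 CPM in selected and 120.3, 131 and 157 CPM in mature SP cells. Dut, which removes deoxyuridine triphosphate and supplies the substrate of Tyms, was at 1031, 1090.2 and 1012 CPM in cycling and 115, 139.7 and 121 CPM in quiescent DP cells. Ada, which clears adenosine and deoxyadenosine, was at 66.8, 78.9 and 58.8 CPM in cycling, 70.6, 106 and 63.96 CPM in quiescent DP and 18.01, 23.7 and 21.5 CPM in mature SP cells.

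Myc, a transcription factor of growth, was at 90.7, 72.4 and 75.1 CPM in DN, 32.4, 23.7 and 26.4 CPM in cycling and 4.91, 2.91 and 2.98 CPM in quiescent DP cells. Samhd1, Dut, Ada and Myc were chosen after their values were seen. Of the other pathway genes, Ahcy, Ampd2, Mtr and Slc25a32 differed by more than 1.5-fold in at least 2 genotype pairs in cycling cells. Ahcy, which splits S-adenosylhomocysteine, was at 8.68, 13.1 and 5.96 CPM, highest in p53 AD/-. Mtr, methionine synthase, was at 15.1, 9.28 and 17.5 CPM, Slc25a32, the mitochondrial folate carrier, at 12.4, 7.08 and 12.1 CPM, and Ampd2, an AMP deaminase, at 10.96, 6.98 and 10.8 CPM, each lowest in p53 AD/-. Of all genes 2.74% were higher and 20.7% lower in p53 AD/- than in p53-/- in these cells, and 3.47% higher and 13.4% lower than in p53+/-. The number of other pathway genes tested in each pair is not given, so no share of them is set beside these. Ampd2 also differed by more than 1.5-fold in 2 genotype pairs in quiescent DP cells.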
